A study of Mus musculus with 6 samples.

Results

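The liver X receptor (LXR) and lipid efflux genes are 10 genes followed here by symbol in a table of 24493 genes: the receptors Nr1h2 and Nr1h3, the sterol hydroxylase Ch25h, the transporters Abca1 and Abcg1, the carriers Apoe and Pltp, and Mylip, Lpcat3 and Lpl. All 10 symbols were found. RNA came from mouse pancreatic tumor cells, sorted from tumors that grew after subcutaneous implantation in the C57BL/6 strain. The titles carry 1 tumor line name for all libraries, and the gate of the sort is not given. The 4 control libraries came from tumors without the combination. The 2 GAFCP libraries came from tumors given gemcitabine and abraxane (chemotherapy), an agonist of CD40, and antibodies blocking PD-1 and CTLA-4. The labels give no age, dose or time, and do not state that each library is a different animal. The p-values therefore reflect library-to-library spread alone, and that spread may be technical.

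LXRs are nuclear receptors that bind DNA as pairs with a retinoid X receptor and are activated by oxysterols, oxidized forms of cholesterol. When cellular cholesterol is high they turn on genes that export it (Abca1, Abcg1, Apoe), genes that remodel lipoproteins and membranes (Pltp, Lpcat3, Lpl), the ubiquitin ligase gene Mylip, and fatty acid synthesis through Srebf1. Tissue macrophages are a textbook site of this program, and epithelial cells use it too. The comparison asks how these genes differed in sorted tumor cells with the treatment.

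Values are TPM, each transcript's length-corrected share of its library, and changes are differences of log2(TPM + 1), GAFCP minus control. A gene was called at a limma p under 0.05 after Benjamini-Hochberg adjustment over the 13720 genes tested. Of the 10 genes 6 were higher, 1 was lower and 3 did not pass. In the same test 47.5% of all genes were called, 19.0% higher and 28.5% lower (median-of-ratios scaling moved that split from 2606 higher and 3909 lower to 3449 and 3425). The median log2 change was 0.57 over the 10 genes and -0.07 over all genes tested. Mylip stayed under 1 TPM in all 4 controls, so it entered the test only through the GAFCP libraries, where it was high. The other 9 were at 1 TPM or more in every control.

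**Figure D1:**
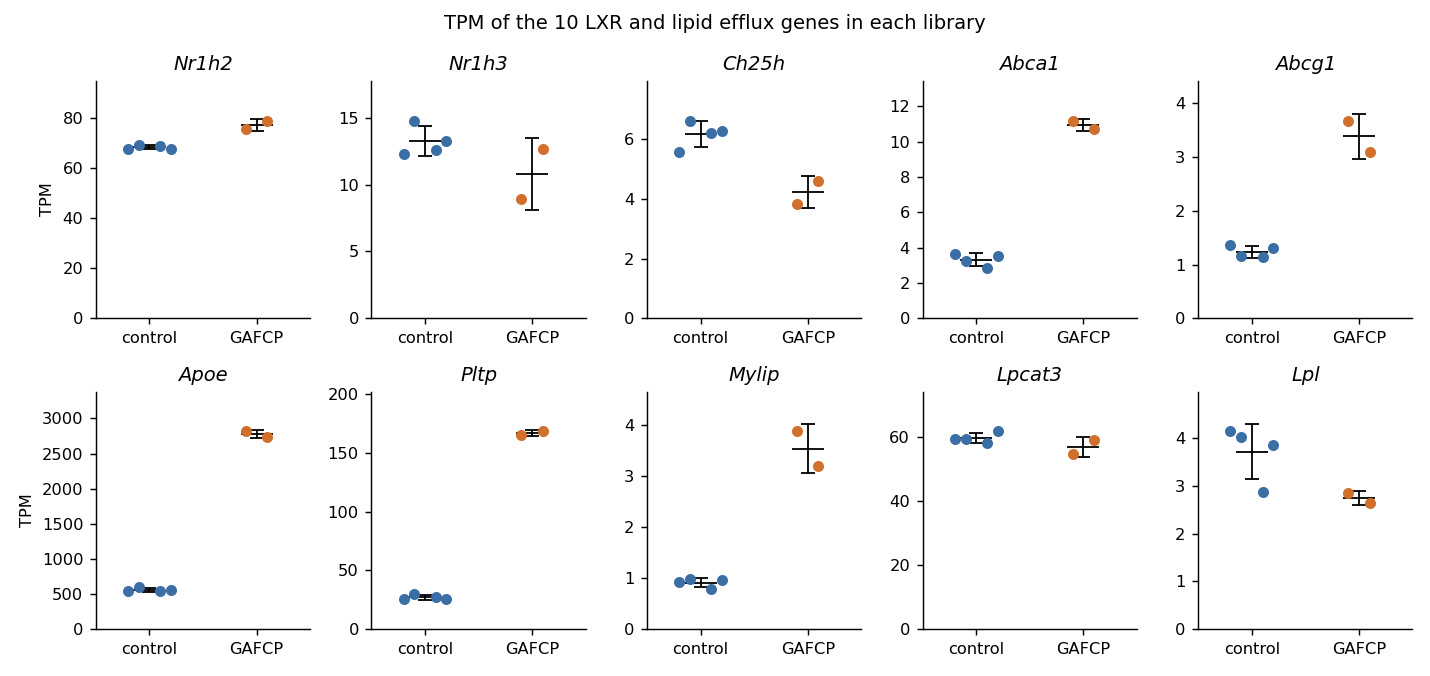
TPM (vertical axes, each from 0) of the 10 genes in 4 control (blue) and 2 GAFCP (orange) libraries; each point is a library, black bars are the mean and SD. Apoe, Pltp, Abca1, Abcg1 and Mylip stood clear of the controls, while Nr1h3 and Lpcat3 overlapped with them.

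The start regions of 4 of the genes called higher are printed because these 4 rose together, with the motif matches marked in them. They are RefSeq windows on GRCm38.p6 from 250 bases before to 50 after the start, read on the gene's strand, which matched 8 of the 10 genes (not Abcg1 and Lpl). Capitals mark matches on either strand to 3 short motifs: the GC box GGGCGG, the TATA motif TATAAA, and the LXR-type direct repeat, AGGTCA followed after any 4 bases by a second AGGTCA, with at most 3 mismatches (all 16 bases capital). The Abca1 window is chr4:53159846-53160145 (minus strand), that of Mylip chr13:45389492-45389791 (plus strand), that of Pltp chr2:164857659-164857958 (minus strand) and that of Apoe chr7:19699139-19699438 (minus strand).
Abca1: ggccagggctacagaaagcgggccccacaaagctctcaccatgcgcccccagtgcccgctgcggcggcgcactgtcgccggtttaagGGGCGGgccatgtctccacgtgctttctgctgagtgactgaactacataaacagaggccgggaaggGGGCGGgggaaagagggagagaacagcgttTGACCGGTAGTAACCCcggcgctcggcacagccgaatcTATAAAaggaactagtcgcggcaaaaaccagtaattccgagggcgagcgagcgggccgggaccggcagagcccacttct
Mylip: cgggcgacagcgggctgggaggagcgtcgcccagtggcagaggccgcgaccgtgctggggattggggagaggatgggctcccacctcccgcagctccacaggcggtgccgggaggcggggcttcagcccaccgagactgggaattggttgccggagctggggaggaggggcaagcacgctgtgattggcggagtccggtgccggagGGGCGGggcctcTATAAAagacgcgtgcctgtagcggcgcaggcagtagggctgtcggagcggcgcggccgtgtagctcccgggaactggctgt
Pltp: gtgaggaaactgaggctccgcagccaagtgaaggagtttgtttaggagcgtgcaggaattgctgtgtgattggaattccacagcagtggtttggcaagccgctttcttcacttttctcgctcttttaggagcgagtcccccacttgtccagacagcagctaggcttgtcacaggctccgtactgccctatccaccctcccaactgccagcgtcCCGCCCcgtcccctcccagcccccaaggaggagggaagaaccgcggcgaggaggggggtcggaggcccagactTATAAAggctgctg
Apoe: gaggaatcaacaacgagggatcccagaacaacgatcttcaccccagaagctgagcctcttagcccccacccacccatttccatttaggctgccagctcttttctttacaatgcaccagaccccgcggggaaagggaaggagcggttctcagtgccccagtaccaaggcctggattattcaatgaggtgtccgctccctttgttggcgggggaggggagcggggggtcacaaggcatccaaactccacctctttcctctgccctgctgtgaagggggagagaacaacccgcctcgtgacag

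The windows of Abca1 and Mylip both hold a TATA motif, beginning 29 and 32 bases before the start, and at least 1 GC box. The Pltp window holds a GC box before the start and a TATA motif after it, and the printed Apoe window holds neither. Another Apoe window, not printed, holds a TATA motif on each strand, beginning 96 and 100 bases before its start. The window of Nr1h2, also called higher but by a log2 change of 0.18, is not printed and holds none of the marked motifs. Genes that did not rise hold these motifs too: Lpcat3, which did not pass the test, holds 6 GC boxes, the most of any window, and Ch25h, which was lower, a TATA motif 151 bases before the start. The 4 printed windows share none of the marked motifs. Over 32851 windows of this length in the RefSeq table, 35.7% hold the GC box and 13.6% the TATA motif. Over the 11 windows of the 8 matched genes, 4 hold the GC box and 5 the TATA motif. The LXR-type repeat was searched first with at most 2 mismatches, which matched none of the 11 windows and 3.02% of all windows. With 3 mismatches allowed, a limit set after that search, 1 of the 11 windows matched, that of Abca1, against 21.9% of all windows. The match lies on the opposite strand from 67 bases before the start toward the gene, and reads as follows on that strand, with the letters that equal the motif in capitals.
Abca1 repeat: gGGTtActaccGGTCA
The interferon-type motif of GAAA repeated after any 2 bases (3.44% of all windows) and the motif TTCNNNGAA (8.30%) matched none of the 11. No GC box or TATA motif overlapped the repeat in the Abca1 window. These matches describe letters in short windows only.

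The receptors themselves moved little. Nr1h2, which encodes LXR beta (chromosome 7, 44549616 to 44553951, mm10), was at 67.4, 69.1, 68.7 and 67.7 TPM in controls 1 to 4 and at 75.6 and 78.9 TPM in the GAFCP libraries. Both GAFCP libraries lay above every control, a log2 difference of 0.18 ± 0.04 (SE; limma adjusted p = 0.00725). Without GAFCP library 2 the change was 0.15 and did not pass (limma adjusted p = 0.0917). Nr1h3, which encodes LXR alpha, the form enriched in macrophages and liver (chromosome 2, 91184061 to 91202834), was at 12.3, 14.8, 12.6 and 13.3 TPM in controls and at 8.90 and 12.7 TPM with GAFCP. GAFCP library 1 was below all controls and library 2 lay among them. The log2 change was -0.29 ± 0.13 (SE; limma adjusted p = 0.104). It was -0.06 without library 1 and -0.53 without library 2 (limma adjusted p = 0.729 and 0.0133). The LXR beta transcript was the more abundant in every library, averaging 68.2 against 13.3 TPM in controls.

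Ch25h makes 25-hydroxycholesterol, an oxysterol that activates LXR, and is known as a gene that interferon induces in macrophages. It was lower with GAFCP. Controls held 5.57, 6.63, 6.20 and 6.27 TPM and the GAFCP libraries 3.84 and 4.60 TPM, with no overlap. The log2 change was -0.46 ± 0.10 (SE; limma adjusted p = 0.00638; chromosome 19, 34473778 to 34475164). Without GAFCP library 1 it was -0.35 and did not pass (limma adjusted p = 0.0699).

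Both cholesterol transporters rose. Abca1, which moves cholesterol and phospholipid to lipid-poor apolipoproteins (chromosome 4, 53030787 to 53159895), was at 3.65, 3.22, 2.87 and 3.54 TPM in controls and at 11.2 and 10.7 TPM with GAFCP. Both GAFCP libraries lay far above the control range, a ratio of means of 3.29 and a log2 difference of 1.47 ± 0.10 (SE; limma adjusted p = 1.4e-05). Abcg1, which passes cholesterol on to formed HDL particles (chromosome 17, 31057675 to 31117988), was at 1.36, 1.15, 1.14 and 1.31 TPM in controls and at 3.68 and 3.09 TPM with GAFCP. The groups did not overlap (ratio of means 2.73, log2 change 0.97 ± 0.12 SE, limma adjusted p = 3.9e-04). At these low levels the size on the log scale depended on the pseudocount: with 0.1 and 5 in place of 1, Abca1 changed by 1.70 and 0.94 and Abcg1 by 1.38 and 0.42, all past the test.

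The lipid carriers showed the largest changes of the 10 genes. Apoe, a secreted carrier of exported lipid (chromosome 7, 19696109 to 19699188), was at 537.3, 593.4, 546.9 and 551.3 TPM in controls and at 2818 and 2742 TPM with GAFCP. The GAFCP mean was 4.99 times the control mean, a log2 difference of 2.32 ± 0.04 (SE; limma adjusted p = 2.5e-08). Pltp, which transfers phospholipid between lipoprotein particles (chromosome 2, 164839518 to 164857711), was at 25.3, 29.7, 27.2 and 25.2 TPM in controls and at 165.1 and 168.6 TPM with GAFCP. That is a ratio of means of 6.22 and a log2 difference of 2.59 ± 0.07 (SE; limma adjusted p = 9.0e-08). Among all genes tested, 0.474% had a larger log2 change than Pltp and 0.751% a larger one than Apoe. Both genes kept their call in all 17 alternative settings, with log2 changes of 2.43 to 2.66 for Pltp and 2.29 to 2.38 for Apoe.

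Mylip, a ubiquitin ligase that limits lipoprotein uptake (chromosome 13, 45389742 to 45412022), was at 0.930, 0.980, 0.776 and 0.955 TPM in controls. With GAFCP it was at 3.88 and 3.20 TPM, above every control, a ratio of means of 3.88. The log2 change was 1.25 ± 0.13 (SE; limma adjusted p = 1.3e-04). With no filter on low values the limma adjusted p was 2.3e-04, and the change was 1.85 with a pseudocount of 0.1 and 0.53 with 5. With either GAFCP library left out Mylip fell under the filter and was not tested.

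The membrane and lipase genes did not pass the test. Lpcat3, which puts polyunsaturated fatty acids into membrane phospholipids (chromosome 6, 124663027 to 124704418), was at 59.4, 59.4, 58.0 and 61.7 TPM in controls and at 54.6 and 59.1 TPM with GAFCP. The groups overlapped (log2 change -0.07 ± 0.05 SE, limma adjusted p = 0.288). Lpl, the lipase that frees fatty acids from lipoproteins (chromosome 8, 68880491 to 68907448), was at 4.15, 4.02, 2.87 and 3.86 TPM in controls and at 2.86 and 2.64 TPM with GAFCP. Control library 3 lay just above the GAFCP libraries and the other 3 controls well above them. The log2 change was -0.32 ± 0.13 (SE; limma adjusted p = 0.0832). Lpl passed without control library 3 (limma adjusted p = 0.00737), with robust variance moderation (0.0494), with the replicate number as a block (0.0367) and with control libraries 1 and 2 alone (0.0166), the last a choice made after seeing the data.

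The order of levels also shifted. In controls it ran Apoe, Nr1h2, Lpcat3, Pltp, Nr1h3, Ch25h, Lpl, Abca1, Abcg1 and Mylip, from 557.2 to 0.910 TPM on average. Only the neighbours Lpl (3.72 ± 0.581 TPM, SD, n = 4) and Abca1 (3.32 ± 0.350 TPM) had overlapping ranges. With GAFCP, Pltp (166.8 ± 2.43 TPM, SD, n = 2) stood second and Lpl (2.75 ± 0.161 TPM) last. Abca1 overlapped with Nr1h3 there, and the range of Mylip (3.20 to 3.88 TPM) overlapped with that of Ch25h above it and of Abcg1 below it. Ch25h (3.84 and 4.60 TPM) lay above Abcg1 (3.68 and 3.09 TPM). Apoe made up 75.2% of the summed TPM of the 10 genes in controls and 89.2% with GAFCP.

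Markers of macrophages rose, although the labels describe sorted tumor cells. So did 6 of the 10 genes, but not Nr1h3, Lpcat3, Ch25h and Lpl. Of 20 macrophage and monocyte markers, none of them among the 10 genes, 19 were higher and none lower, against 19.0% and 28.5% of all genes. The median log2 change of these markers was 1.68. Marco, 1 of the 19, was under 1 TPM in all controls and so was tested only through the GAFCP libraries. Their summed TPM was 1045 to 1099 in controls and 3455 and 3457 with GAFCP. None of the defining markers was at 0: Adgre1 (F4/80) was at 4.49 to 5.80 TPM in controls and at 29.2 TPM or more with GAFCP, and Csf1r, the CSF1 receptor, at 17.2 to 18.7 and at 94.5 and 94.9 TPM. All 10 pan-leukocyte markers were higher too (sum 113.7 to 133.9 TPM in controls, 327.0 and 339.0 TPM with GAFCP). Of 9 tumor epithelium markers 6 were lower and 1 higher, the sum going from 6813 to 7195 TPM down to 5184 and 5216 TPM, and 4 keratins made up most of it. Epcam, an epithelial adhesion protein, changed most, from 12.5, 12.8, 12.9 and 13.1 TPM in controls to 1.68 and 1.39 TPM with GAFCP (log2 change -2.45, limma adjusted p = 2.1e-07), and Krt18 did not pass. In bulk libraries, a change in the number of cells of a type and in RNA per cell cannot be told apart. The part of macrophage RNA in the changes of the 10 genes was not tested.

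Set against the macrophage markers, the 10 genes divided into groups. On the log2(TPM + 1) scale no macrophage marker of the 20 changed more than Pltp, and 3 changed more than Apoe. Of the 20 markers 12 changed more than Abca1, 14 more than Mylip and 18 more than Abcg1. That scale shrinks changes of genes near 1 TPM, such as Mylip and Abcg1, and the ranking depends on it. By ratio of means Marco (10.8) and Aif1 (7.43) were above Pltp (6.22). Ms4a7 (6.16), Adgre1 (5.47) and Csf1r (5.23) were also above Apoe (4.99). As a percentage of the summed macrophage marker TPM, Apoe was 51.3% to 54.0% in controls and 81.5% and 79.3% with GAFCP, and Pltp was 2.41% to 2.70% and then 4.78% and 4.88%. Both shares were above every control. Abca1 was 0.272% to 0.349% in controls and 0.324% and 0.309% with GAFCP, inside the control range, and Abcg1, at 0.105% to 0.130% and then 0.107% and 0.0893%, overlapped with it. Mylip was 0.0734% to 0.0914% and then 0.112% and 0.0925%. The shares of Nr1h3 (1.18% to 1.35%, then 0.258% and 0.366%) and Ch25h (0.532% to 0.603%, then 0.111% and 0.133%) lay below every control. Those of Lpl (0.271% to 0.396%, then 0.0829% and 0.0763%), Nr1h2 and Lpcat3 did too. As shares of the summed tumor epithelium markers Nr1h3, Ch25h and Lpl overlapped with controls, while Nr1h2 and Lpcat3 lay above every control. Lpl was 0.0421% to 0.0605% there and then 0.0552% and 0.0506%. Nr1h3 was 0.18% to 0.206% there and then 0.172% and 0.243%, and Ch25h 0.0813% to 0.0921% and then 0.0741% and 0.0881%. Against the summed pan-leukocyte markers Abca1 was 2.41% to 2.87% in controls and 3.43% and 3.15% with GAFCP, above every control, and Mylip was 0.683% to 0.732% and then 1.19% and 0.943%. Abcg1, at 0.859% to 1.07% and then 1.13% and 0.911%, overlapped with controls there too. These shares are descriptions with no test, and all of them, not that of Abca1 alone, depend on which markers are summed. Of the mean macrophage sum of 1062 TPM in controls, Lyz2 held 411.6 and Cd14 147.1 TPM. Their ratios of means were 3.3 and 1.19.

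**Figure D2:**
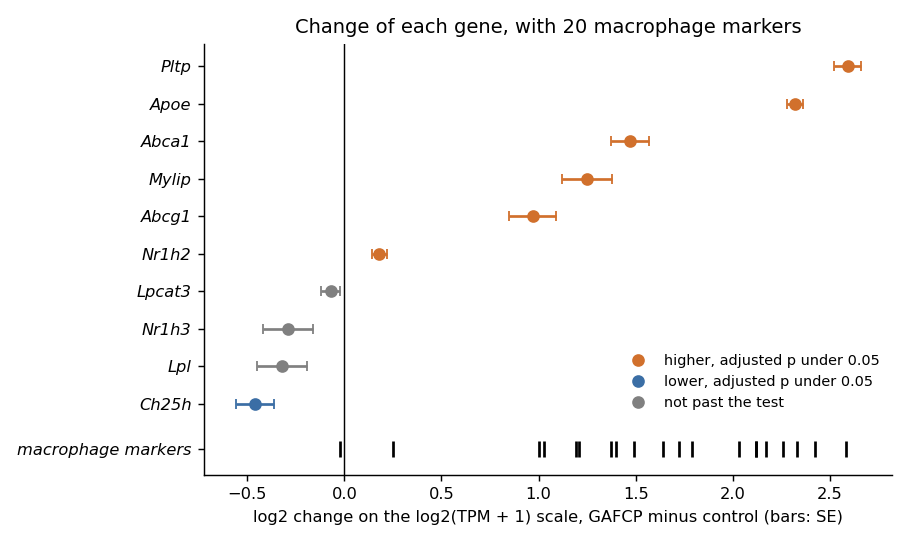
Log2 change on the log2(TPM + 1) scale, GAFCP minus control, for the 10 genes (points with SE bars; orange higher, blue lower, grey not past the test) and for 20 macrophage markers (ticks at the bottom). Apoe and Pltp lay at the upper end of the markers and Abcg1, Mylip and Abca1 in their lower to middle range. This scale shrinks changes of genes near 1 TPM, such as Mylip and Abcg1.

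**Figure D3:**
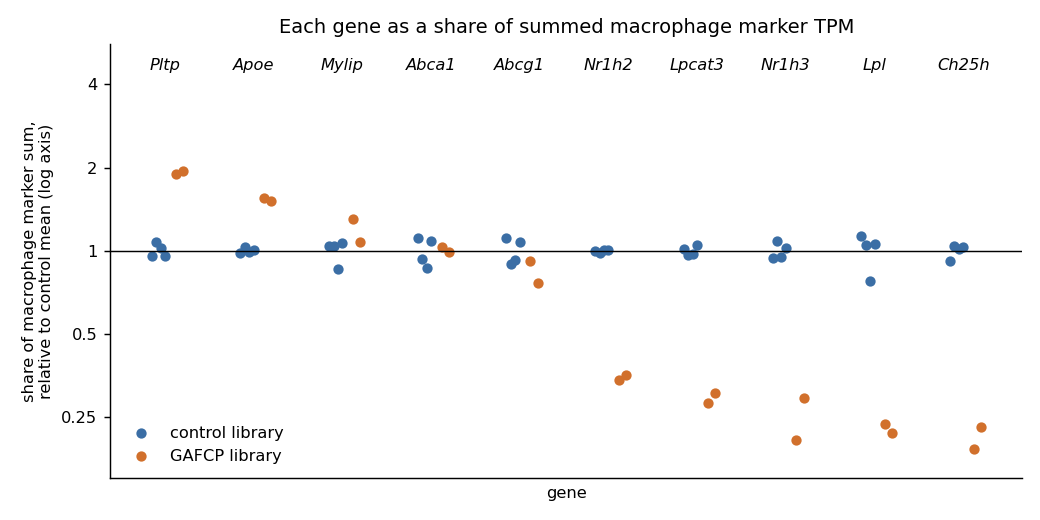
Each gene's TPM as a share of the summed macrophage marker TPM, relative to its control mean (vertical log axis; blue control and orange GAFCP libraries). Pltp and Apoe lay above 1 with GAFCP, Abca1 near 1, and Nr1h2, Lpcat3, Nr1h3, Lpl and Ch25h well below.

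Other cell types were checked by their markers. In the same test 19.0% of all genes were higher and 28.5% lower. The dendritic cell, endothelial and adipocyte lists have too few tested genes to set against these shares. Fibroblast and pericyte markers were partly higher (7 higher and 2 lower of 11 tested, sum 226.0 to 247.5 TPM in controls against 361.9 and 362.5 TPM with GAFCP). Neutrophil markers (4 higher of 6 tested) summed to 35.6 to 41.1 TPM in controls and to 107.6 and 117.2 TPM with GAFCP. S100a8 (57.7 and 55.5 TPM) and S100a9 (24.8 and 37.0 TPM) made up most of the sum with GAFCP. Csf3r and Cxcr2 were also higher, and Retnlg and Mmp9 did not pass. Ly6g reached at most 0.184 TPM, in a control, and was not tested. T and NK cell markers (6 higher of 7) were at low summed levels, 5.12 to 7.0 TPM and then 32.7 and 29.5 TPM. Cd3e, Cd3g and Cd4, 3 of the 6, stayed under 1 TPM in all controls and so were tested only through the GAFCP libraries. Of dendritic cell markers 1 of 3 tested was higher, and of endothelial markers 1 was higher and 2 lower of 4. Adipocytes, which make much Lpl, were checked by 8 markers. Adipoq, a hormone of fat cells, reached 1.86 TPM at most. Fabp4, a fatty acid binding protein, was at 27.4, 14.0, 2.80 and 3.06 TPM in controls 1 to 4 and at 5.37 and 6.72 TPM with GAFCP, and Cfd, the secreted protease adipsin, at 7.25, 1.61, 0.117 and 0.645 TPM and then at 0.220 and 0.457 TPM. Both were highest in control libraries 1 and 2. Lpl passed the test when these were the only controls, while Lpl was also high in control library 4. Their part in the result for Lpl was not tested. Of the 4 adipocyte markers tested 2 were lower, and the sum over all 8 was 43.0 to 79.9 TPM in controls and at most 30.2 TPM with GAFCP. Pparg, also an epithelial gene, accounted for 36.4 to 38.5 TPM of it in controls and 21.8 and 20.6 TPM with GAFCP.

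Other target genes of LXR moved both ways. Of 10 tested genes on this list 2 were higher and 5 lower (median log2 change -0.44), or 20% and 50% of those tested against 19.0% and 28.5% of all genes. Mertk, the receptor with which macrophages take up dying cells, was at 2.49 to 2.68 TPM in controls against 7.31 and 6.74 TPM with GAFCP (log2 change 1.17 ± 0.09 SE, limma adjusted p = 2.6e-05), and Smpdl3a, a phosphodiesterase, rose by 0.95. The lipogenic targets went the other way. Scd2, a fatty acid desaturase, was at 280.4 to 328.0 TPM in controls and at 150.3 and 153.7 TPM with GAFCP (log2 change -1.04 ± 0.06 SE, limma adjusted p = 9.5e-06), and its relative Scd1 changed by -0.59. Srebf1, through which LXR drives lipogenesis, and Fasn, the fatty acid synthase, changed by -0.17 and -0.28 and are named after their values were seen. Arl4c, a small GTPase, changed by -0.91. Cd5l, Abcg5, Abcg8 and Mlxipl stayed under 1 TPM in every library.

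LXR partners and cofactors changed little. None of 12 tested was higher and 4 were lower, with a median log2 change of -0.15. The share lower, 33.3%, was near the 28.5% of all genes. Rxrb, a retinoid X receptor that pairs with LXR, was at 50.2 to 57.0 TPM in controls against 43.5 and 43.3 TPM with GAFCP (log2 change -0.31 ± 0.06 SE, limma adjusted p = 0.00282). The corepressor complex genes Tbl1xr1, Hdac3 and Tbl1x changed by -0.39, -0.19 and -0.34. Rxra (0.07) and Ncor1 (-0.17) did not pass.

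Genes that make, remove or sense sterol ligands were mostly low or lower. Of 10 oxysterol genes 6 stayed under 1 TPM in every library, among them Cyp7a1 and Gpr183. Of the 4 tested, 2 were lower and 1 higher, too few to set against the background shares. Cyp39a1, an oxysterol hydroxylase, was at 13.7 to 14.1 TPM in controls against 7.21 and 8.57 TPM with GAFCP (log2 change -0.76 ± 0.08 SE, limma adjusted p = 1.2e-04). The bile acid enzyme gene Hsd3b7 changed by -0.34 and the sterol sulfotransferase Sult2b1 by 0.15. Cyp27a1, which makes 27-hydroxycholesterol, was at 12.3 to 15.9 TPM in controls against 13.3 and 14.9 TPM with GAFCP.

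Among 16 genes of cholesterol storage, transport and uptake 3 were higher and 5 lower (median log2 change -0.08), so that 50% were called against 47.5% of all genes. Npc2, which carries cholesterol inside lysosomes, rose by 0.46, and Soat1, which esterifies cholesterol for storage, by 0.30. Lipa, the lysosomal lipase that frees cholesterol, changed by -0.73, the scavenger receptor Cd36 by -0.76 and the sterol transporter Stard3 by -0.32. Lcat, which esterifies cholesterol on HDL, rose by 0.37, and the sterol-binding protein genes Gramd1b and Osbpl2 changed by -0.30 and -0.20. Of 3 lipoprotein receptor genes examined 1 passed: Vldlr, a receptor for triglyceride-rich particles, was at 7.70 to 8.99 TPM in controls against 12.8 and 12.3 TPM with GAFCP (log2 change 0.53 ± 0.08 SE, limma adjusted p = 0.00105).

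Of the partners of Lpl, 1 was higher and 1 lower. Angptl4, a secreted inhibitor of the lipase, was at 120.8 to 126.9 TPM in controls and at 463.1 and 460.9 TPM with GAFCP (log2 change 1.89 ± 0.03 SE, limma adjusted p = 2.2e-08). Gpihbp1, which holds the lipase on capillary walls, was at 1.59 to 3.66 TPM in controls against 0.812 and 1.35 TPM with GAFCP (log2 change -0.75 ± 0.23 SE, limma adjusted p = 0.0292). Of 6 tested genes on this list these were the only ones called, 33.3% against 47.5% of all genes. Of 7 further lysophospholipid acyltransferases, relatives of Lpcat3, 1 was higher and 3 were lower: Lpcat2, found in inflammatory cells, rose by 0.93, and Lpcat4, Mboat1 and Lpgat1 changed by -0.77, -0.35 and -0.31. Over all 7 lists 9 of 58 tested genes were higher and 20 lower (15.5% and 34.5%), or 50% called, near the 47.5% of all genes. With median-of-ratios scaling 17 were higher and 19 lower. Of the 29 called genes 11 lost their call in at least 1 alternative setting, Sult2b1, Tbl1x, Gpihbp1, Hdac3, Tbl1xr1, Lpgat1, Srebf1, Fasn, Lcat, Gramd1b and Osbpl2.

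**Figure D4:**
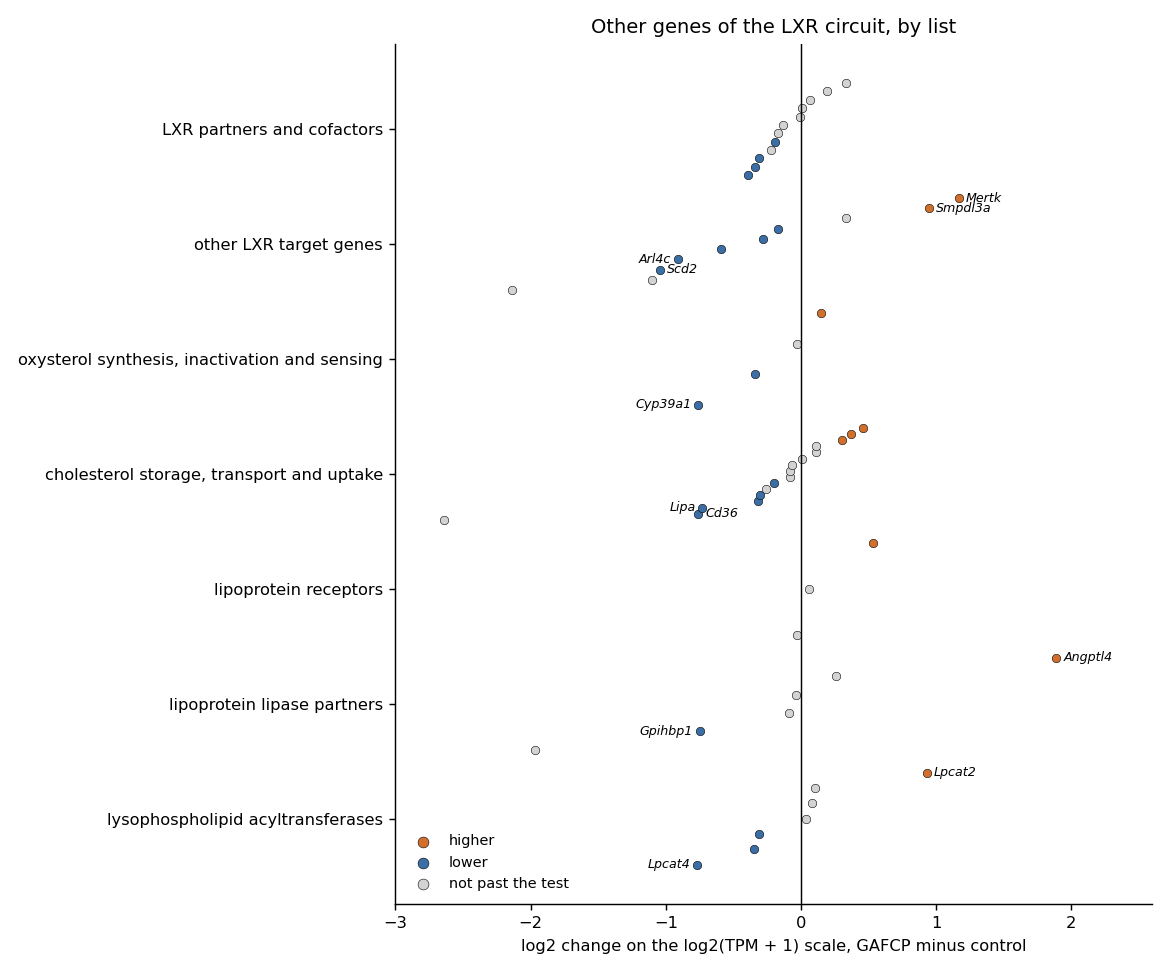
Log2 change on the log2(TPM + 1) scale, GAFCP minus control, of every tested gene in 7 further lists; each point is a gene (orange higher, blue lower, grey not past the test), and called genes beyond 0.7 in either direction are named. Angptl4 and Mertk stood furthest to the right and Scd2 furthest to the left among called genes.

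The neighbours of Apoe on chromosome 7 showed other patterns. Apoc1, Apoc4 and Apoc2 encode small apolipoproteins and lie beside Apoe (Apoc1 at 19689481 to 19692660, Apoc2 at 19671579 to 19677941). Apoc1 was at 28.3 and 51.6 TPM in control libraries 1 and 2, at 0.346 and 0.362 TPM in control libraries 3 and 4, and at 1.72 and 0 TPM with GAFCP. Apoc4 was at 3.98, 7.74, 0.230 and 0 TPM in controls against 0.285 and 0.239 TPM with GAFCP. Neither passed the test (limma adjusted p = 0.296 and 0.315), and the SD among controls exceeded the difference between the group means. Apoc2, the activator of Lpl, was at 4.18 to 6.49 TPM in controls against 6.93 and 6.10 TPM with GAFCP (limma adjusted p = 0.104). How reads were divided among these neighbouring genes was not examined.

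**Figure D5:**
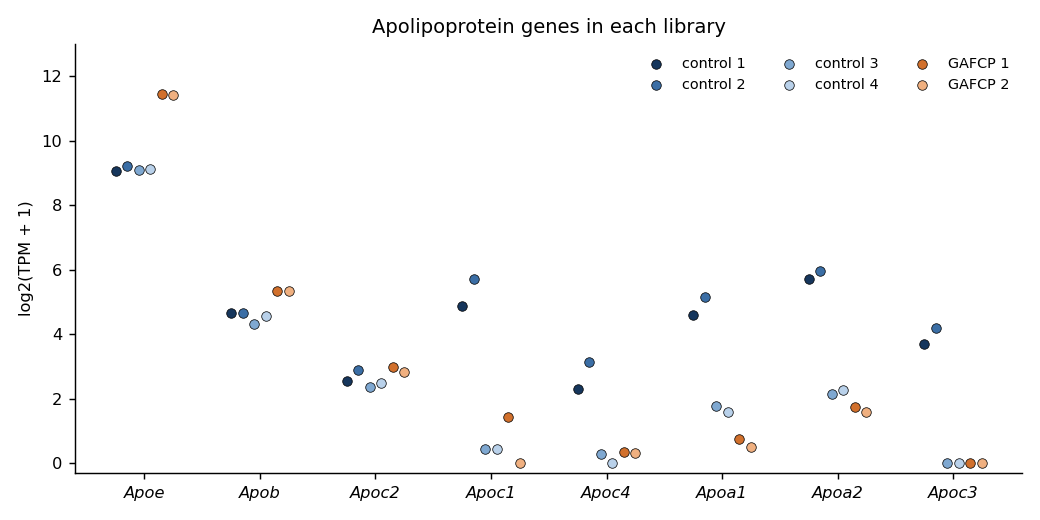
Log2(TPM + 1) (vertical axis) of 8 apolipoprotein genes, a point for each of 4 control and 2 GAFCP libraries. Apoe and Apob were close among controls, while Apoc1, Apoc4, Apoa1, Apoa2 and Apoc3 were higher in control libraries 1 and 2 than in the other 4 libraries.

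By pattern over the 6 libraries, the genes most like Apoe among 10066 with a mean of at least 5 TPM were Hilpda, Socs3 and H2-D1, each at a Pearson correlation of 0.9999. As many as 1105 genes had a correlation over 0.95 with Apoe over these libraries. For Nr1h3 the nearest were Gls2, Snrpd2 and Aif1l (0.993, 0.986 and 0.983), with 22 genes over 0.95. For Lpl they were Pde4dip, Atl3 and Mgat5 (0.998, 0.996 and 0.996), with 356 genes over 0.95. All correlations share the same libraries and are descriptions.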

How the data were processed

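RNA from 6 libraries (4 control, 2 GAFCP) was sequenced by a company, per the labels' protocols. The authors deposited TPM values, which their processing notes tie to Salmon and mm10. Neither the version of Salmon nor the annotation is given in the sources used here. TPM keeps no depth, so depth is unknown. Sample titles gave the groups and replicate numbers.

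The log2(TPM + 1) values of the 13720 genes reaching 1 TPM in 2 or more libraries were fitted in limma 3.58.1 (R 4.3.3; trended empirical Bayes, 4 residual degrees of freedom), with Benjamini-Hochberg adjustment over all of them. The fit was tested on simulated data. The 10 genes and all lists were chosen with earlier results of these data known. Besides the 10, called genes were named up to 5 a list by smallest p, with the 3 nearest patterns of Apoe, Nr1h3 and Lpl. Srebf1, Fasn, Rxra, Ncor1, Cyp27a1, Cyp7a1, Gpr183, Cd5l, Abcg5, Abcg8, Mlxipl, Lcat, Gramd1b, Osbpl2, the apolipoproteins and the single markers were named after their values were seen. A few genes were taken off the lists before counting and are not reported here. Gene positions are from GENCODE M21 (mm10). Alternatives changed the pseudocount, filter, scaling, variance model, replicate block and libraries used.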

Additional observations from a re-analysis of the deposited data

Results flagged for a closer look

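In 39 genes, the 10 and the 29 called genes of the other lists, the 4 control libraries were checked for 1 library far from the rest, and 1 gene had one (chance gives about 1 in 20 groups). Smpdl3a was at 6.08 TPM in control library 4 and at 8.27 to 8.53 TPM in the other controls. Both GAFCP libraries lay above the control range, at 15.2 and 16.6 TPM. None of the 10 LXR and lipid efflux genes had such a library.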

How the results depend on the processing

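Of the 10 genes, Apoe, Pltp, Abca1, Abcg1, Mylip and Lpcat3 kept their side of the threshold in every alternative that tested them, and none of the 10 genes or the 29 called genes of the lists changed direction. Named list genes that were not called had no alternatives run. The count of higher genes among the 10 was 6 in every other setting except the filter at a mean of 5 TPM, where it was 4 and Abcg1 and Mylip were not tested, and leave-one-library-out fits, where it ranged from 4 to 6. The count of lower genes was 2 with robust moderation, with the replicate block and with control libraries 1 and 2 alone, Lpl joining Ch25h, and ranged from 0 to 2 when a library was left out. Over the other lists, 17 genes were higher with median-of-ratios scaling in place of 9, and leaving out a library gave 7 to 9 higher and 11 to 24 lower. The low values of 11 and 12 came without GAFCP library 1 and without GAFCP library 2. Over all genes, leaving out a library gave 4258 to 7226 called, 1715 to 2610 higher and 2514 to 4641 lower. With 1 GAFCP library left, that library is assumed to vary as the controls did.

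Replicate numbers are shared by the groups, but the labels do not say that a number marks a common animal or day. Deviations of same-numbered libraries correlated at -0.007 and -0.02. With 2 GAFCP libraries the deviations of each are the exact opposite of the other's, so these values cannot decide whether the numbers mark pairs. The replicate block gave 5894 called genes in place of 6515. Depth is unknown, so for Abcg1, Mylip and other genes near 1 TPM no counting error can be given.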

Other observations

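Apolipoproteins that liver and gut make for plasma lipoproteins divided the control libraries. The 14 genes were listed after Apoc1 and Apoa1 were seen. Apoa1, the main HDL protein, was at 23.0 and 34.4 TPM in control libraries 1 and 2 and at 2.43 and 2.0 TPM in libraries 3 and 4. With GAFCP it was at 0.697 and 0.413 TPM. Apoa2, also of HDL, was at 51.7, 61.2, 3.41 and 3.78 TPM in controls against 2.33 and 1.99 TPM with GAFCP. Apoc3, an inhibitor of lipoprotein clearance, was detected in control libraries 1 and 2, reaching 17.3 TPM, and listed at 0 in the other 4 libraries. None of these passed the test (limma adjusted p = 0.0635 for Apoa1, 0.127 for Apoa2 and 0.23 for Apoc3). Apoe showed no such division, at 537.3 to 593.4 TPM in all controls. Apob, the scaffold of LDL, was at 19.1 to 24.5 TPM in controls against 39.1 and 39.8 TPM with GAFCP, a log2 difference of 0.78 ± 0.10 (SE; limma adjusted p = 3.7e-04). With control libraries 1 and 2 alone or 3 and 4 alone, 6 of the 10 LXR and lipid efflux genes were called higher in either fit.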
